A study of Mus musculus with 3 samples.

Results

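Genes of serine, folate, methionine, purine, pyrimidine and deoxynucleotide synthesis were read in ureteric tip cells of the mouse embryo. The list named 44 genes, and a member was measured where a probe set of the array carried its symbol and no other. That held for 41 of the 44, of 19938 genes measured in this way. Mat2a, Ahcy and Impdh2 are not analysed here. Members fell into 6 branches, with 3 measured genes of serine synthesis, 12 of folate metabolism and glycine cleavage, 2 of the methionine cycle, 11 of purine synthesis, 5 of pyrimidine synthesis and 8 of deoxynucleotide supply.

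The samples were 3 arrays of 1 group, each made from the sorted fluorescent cells of 1 ureteric bud, not pooled, with RNA amplified in 1 round. All embryos carried the Tg(Hoxb7-EGFP)33Cos transgene on the CD-1 strain, had unknown sex per the labels, and were at 10.5 days post coitum (Theiler stage 18). Hoxb7 sequence drives the green protein in the nephric duct as well as in the bud, so the sort does not by itself separate tip cells from the rest of that epithelium. The design holds no second condition, and the comparisons it allows are of each gene with the background of its array, of the branches with each other, and of the buds. Each array is 1 bud with its own replicate number in the labels, and having 3 of them limits how precisely any level is known.

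Signals are deposited log2 values per gene. As a background level, each array was given the 95th percentile of the signals of 1035 probe sets for olfactory receptors, which came to 5.40, 5.45 and 5.41 log2 on arrays 1, 2 and 3. A gene was called above background where limma's one-sided test of its mean signal minus that level gave a Benjamini-Hochberg adjusted p under 0.05 over all genes. Probes differ in how brightly they report a transcript, so the order of signals between genes is not an order of transcript amounts. Of all genes, 51.7% held 1 identical value on all 3 arrays and another 28.7% held 1 value on exactly 2 of them. An SD that is 0 or small for this reason is a property of the deposited values and no measured agreement of the buds. The bud markers were above background in 13 of 13 genes, among them Ret, the receptor for the growth factor GDNF, at 8.69, 8.35 and 8.18 log2 on arrays 1, 2 and 3. Over all genes the share above it was 53.0%, and mesenchyme and stroma markers were above it in 2 of 12. These were Cited1, at 7.08, 7.13 and 6.86 log2, and Sall1, at 6.09 log2 on all 3 arrays. The nephron progenitor gene Six2, at 5.21, 5.21 and 5.18 log2, was not called.

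Dividing cells make nucleotides from small precursors. Serine, made from a glycolytic intermediate, hands a carbon unit to folate inside mitochondria and in the cytosol, and that unit is then built into the purine ring, into thymidylate and into methionine. Purine and pyrimidine rings are assembled by separate enzyme series, and ribonucleotide reductase turns the finished ribonucleotides into the deoxynucleotides used for DNA. In the embryo folate metabolism is best known for its part in neural tube closure, and kidney growth by branching also rests on rapid division of the bud tip.

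The members were above background in 36 of 41 genes (87.8%), beside 53.0% of all genes. Their median signal was 7.09 log2, which lay 1.67 log2 above background, beside 5.64 and 0.22 log2 for all genes. By branch, 3 of 3 serine genes, 8 of 12 folate genes, 2 of 2 methionine genes, 10 of 11 purine genes, 5 of 5 pyrimidine genes and 8 of 8 deoxynucleotide genes were above background. Median signals were 8.73 log2 for purine synthesis, 8.39 for deoxynucleotide supply, 7.31 for pyrimidine synthesis, 6.81 for serine synthesis, 6.57 for the folate branch and 5.73 for the methionine genes. The 5 members not called were Mthfd2l, Amt, Aldh1l1 and Aldh1l2 of the folate branch and Impdh1 of the purine branch. The members were chosen with results of these arrays known, so the shares are a description and have no test.

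The count depended on the genes that set the background. With keratin-associated proteins and beta-defensins in that role it was 20 of 41, beside 21.1% of all genes, and with the 99th percentile of olfactory receptors 31 of 41, beside 35.3%. It was 37 with the 90th percentile (63.7% of all genes) and 38 with vomeronasal receptors (65.0%). Leaving out genes identical on all arrays gave 29 of 32 members, beside 63.1% of such genes. It was 36 of 41 with quantile normalization (52.8% of all genes), with the brightest probe set of each gene (53.4%), with every array over its level and no model (54.0%), and without array 1, 2 or 3 (48.5%, 52.8% and 48.8%). The share of members was above that of all genes in each of these settings. The fits with vomeronasal receptors, without array 1 and without array 3 used a spread pooled over all genes in place of each gene's own.

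**Figure D1:**
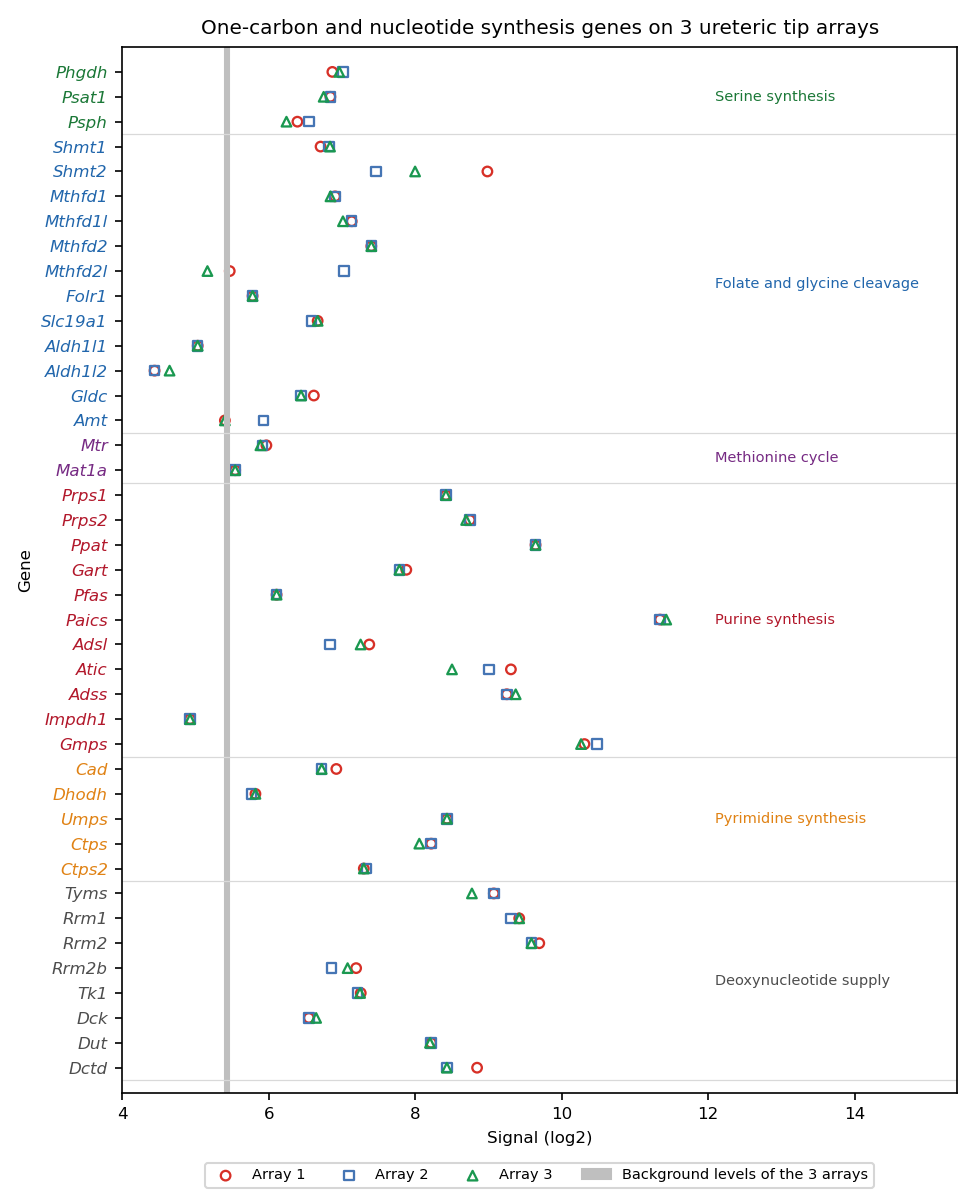
Signal (log2, horizontal axis) of the 41 measured members on each of the 3 arrays, with gene labels coloured by branch and the grey band marking the background levels of 5.40 to 5.45 log2. Paics, Gmps and Ppat lie far to the right of the band, while Impdh1, Aldh1l1 and Aldh1l2 lie to the left of it on every array.

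**Figure D2:**
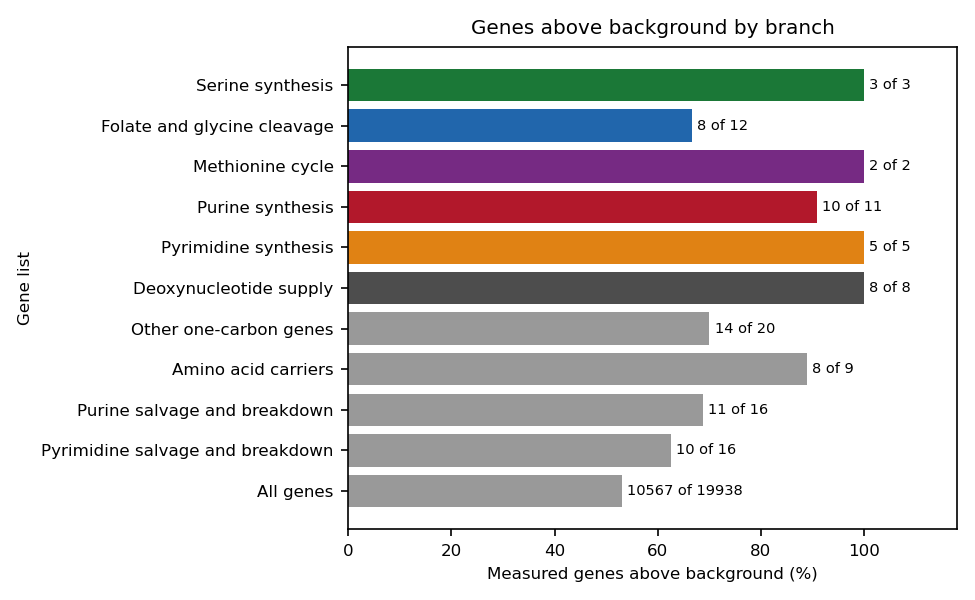
Percentage of measured genes above background in each branch (coloured bars), in the 4 lists of neighbouring pathway genes and over all genes (grey bars), with the counts beside each bar. The folate branch, at 8 of 12, is the lowest of the 6 branches, and all genes stand at 53.0%.

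All 3 genes of serine synthesis were above background. Phgdh, which opens the pathway by oxidising a glycolytic intermediate, had signals of 6.87, 7.02 and 6.96 log2 on arrays 1, 2 and 3, a mean of 6.95 ± 0.08 (SD, n = 3) that lay 1.53 log2 above background (SE 0.03, limma, adjusted p = 6.15e-06). Psat1, the aminotransferase of the next step, was at 6.84, 6.84 and 6.75 log2, or 1.39 above background (SE 0.03, limma, adjusted p = 7.18e-06). Psph, the phosphatase that releases serine, was at 6.39, 6.54 and 6.24 log2, or 0.97 above background (SE 0.06, limma, adjusted p = 0.000173). The buds thus differed in Psph by 0.30 log2 at most, and array 1 alone was the highest for no serine gene. None of the 3 was called when keratin-associated proteins and beta-defensins set the background. Of the listed carriers of serine, glycine and other amino acids, carrier subunits included, 8 of 9 were above background, beside 53.0% of all genes. Slc1a5 was at 6.01, 5.99 and 5.69 log2 and Slc7a5, a leucine carrier subunit, at 6.54, 6.63 and 6.54. Slc1a4, a serine carrier, was not above background at 5.03, 5.39 and 5.03 log2.

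Promoter sequence was matched for 35 of the 41 members, in 43 windows that run from 250 bases before to 50 after an annotated start (RefSeq, GRCm38.p6). The letters CCAAT, the core of the box bound by the factor NF-Y, were searched on both strands, and all 3 serine genes held them. Over the members 18 of 35 genes did (51.4%), beside 42.3% of genes above background and 41.1% of all genes with a window. The serine genes had 4 windows, and 3 of these held the letters. Psat1 had 2 windows, and part of the 1 with the letters is shown. The promoters of the serine genes are shown with each match in capitals, as CCAAT or as its reverse complement ATTGG. They are printed 5′ to 3′ on the strand of the gene, and Psph is cut to 30 bases around 1 of its matches.
Phgdh, chr3:98339970-98340069, minus strand, the last 100 bases before the start: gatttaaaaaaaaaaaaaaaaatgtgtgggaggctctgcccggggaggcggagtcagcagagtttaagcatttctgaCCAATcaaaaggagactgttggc
Psat1, chr19:15925060-15925159, minus strand, the last 100 bases before the start: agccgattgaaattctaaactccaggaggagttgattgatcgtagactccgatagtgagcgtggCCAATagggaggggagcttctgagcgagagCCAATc
Psph, chr5:129787283-129787312, minus strand: gccgcccgctgATTGGcttaatccaacgct
A match of these letters is not a measured binding site.

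In the folate branch the uptake genes were both called. Slc19a1, the reduced folate carrier, averaged 6.67, 6.58 and 6.67 log2 on arrays 1, 2 and 3 over its 2 probe sets, whose means were 6.25 and 7.03, and lay 1.22 log2 above background (SE 0.04, limma, adjusted p = 2.28e-05). Folr1, the folate receptor, held 5.78 log2 on all 3 arrays, 0.36 above background (SE 0.02, limma, adjusted p = 0.000219). With the 99th percentile of olfactory receptors as background its mean was -0.29 log2, that is, below the level. The same 3 values as Folr1 stood for 65 other genes, so its call rests on a value with no measured spread. Over all members, 7 shared their 3 values with another gene, beside 41.3% of all genes. Besides Folr1 these were Mthfd2, Mat1a, Prps1, Pfas, Aldh1l1 and Impdh1.

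The mitochondrial and cytosolic serine hydroxymethyltransferases, which move a carbon from serine to folate, were both above background, with a wider range between buds for Shmt2. Shmt2, the mitochondrial enzyme, had signals of 8.99, 7.46 and 8.0 log2 on arrays 1, 2 and 3, a mean of 8.15 ± 0.77 (SD, n = 3) that lay 2.73 log2 above background (SE 0.34, limma, adjusted p = 0.00191). Its range of 1.53 log2 was highest on array 1 and lowest on array 2. Shmt1, the cytosolic enzyme, was at 6.71, 6.82 and 6.84 log2, a range of 0.13. The range of both was not tested, since each bud is 1 array.

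Further along the mitochondrial route Mthfd2, a dehydrogenase and cyclohydrolase known for its activity in embryos and tumours, held 7.40 log2 on all 3 arrays, 1.98 above background (SE 0.02, limma, adjusted p = 1.81e-06). Mthfd1l, which releases formate from mitochondria, was at 7.13, 7.13 and 7.01 log2, and Mthfd1, which takes the formate up into cytosolic folate, at 6.91, 6.91 and 6.84. These 3 genes were all above background, and each held 1 value on at least 2 arrays, so their small ranges show no agreement of the buds. Mthfd2l, the relative of Mthfd2, did not pass the test: its signals were 5.47, 7.03 and 5.16 log2 on arrays 1, 2 and 3, with a mean of 5.88 ± 1.00 (SD, n = 3; limma, adjusted p = 0.299). Array 2 alone stood clearly over its background level, array 1 lay just over its own, and array 3 lay under it. Without array 2 the mean of Mthfd2l fell below background, at -0.09 log2 (limma, adjusted p = 1), and without array 1 or array 3 it was called (limma, adjusted p of 3.67e-07 and 1.98e-10). The fits without array 1 or array 3 used a spread pooled over all genes in place of the gene's own. Their p-values therefore do not measure the spread of Mthfd2l between buds.

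Among the members, glycine cleavage gave a split pair. Gldc, the decarboxylase that starts it, was at 6.61, 6.44 and 6.44 log2, or 1.08 above background (SE 0.05, limma, adjusted p = 0.000102). Amt, the aminomethyltransferase that hands the carbon to folate, was at 5.40, 5.93 and 5.40 log2 and not called (limma, adjusted p = 0.242), again with array 2 the highest. Without array 2 the mean of Amt was -0.004 log2 against background. Gcsh and Dld, further genes of glycine cleavage outside the member list, were both called. They were at 8.66, 8.66 and 8.67 log2 and at 9.36, 9.48 and 9.38, and are named after their values were seen. Aldh1l1 and Aldh1l2, the cytosolic and mitochondrial enzymes that burn formyl folate to CO2, were both below background. Aldh1l1 held 5.03 log2 on all 3 arrays, a triplet of values shared with 94 other genes, and Aldh1l2 was at 4.44, 4.44 and 4.64 log2.

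Of the methionine cycle only Mtr and Mat1a were measured. Mtr, methionine synthase, which returns the folate methyl group to methionine, was at 5.97, 5.91 and 5.88 log2, or 0.50 above background (SE 0.03, limma, adjusted p = 0.000198). Mat1a, the form of S-adenosylmethionine synthetase known from adult liver, held 5.54 log2 on all 3 arrays, only 0.12 above background (SE 0.02, limma, adjusted p = 0.008), and shared these values with 15 other genes. It was no longer called when array 1 or array 3 was left out (limma, adjusted p of 0.372 and 0.353), although its mean above background was then 0.11 log2 in both fits. Those fits used a spread pooled over all genes. Both genes lay below the level with the 99th percentile as background. The hepatocyte markers Alb, Afp and Ttr were below background, with values identical on all arrays of 4.53 log2 for Alb, 4.55 for Afp and 4.64 for Ttr. The other measured hepatocyte markers, Apoa1 and Hnf4a, were called, at 6.01 and 5.56 log2 on all 3 arrays.

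**Figure D3:**
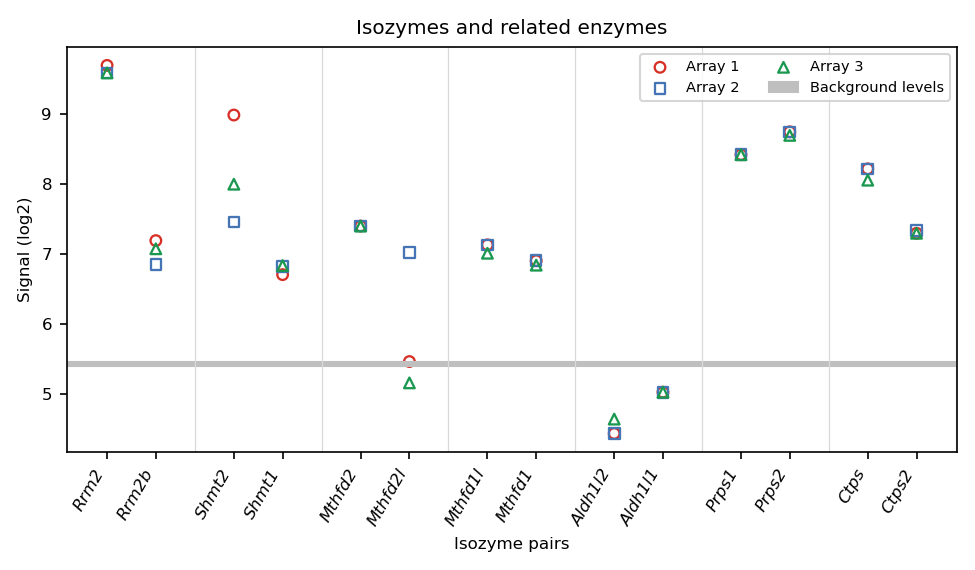
Signal (log2, vertical axis) on each array for the 7 pairs of isozymes or related enzymes with both genes measured, and the band of background levels in grey. Both genes lay above background in 5 pairs, Mthfd2 without Mthfd2l in 1 pair, and neither in the Aldh1l2 and Aldh1l1 pair.

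The purine branch ran from phosphoribosyl pyrophosphate, the activated sugar, to AMP and GMP. Both synthetases of that sugar were above background, with Prps1 at 8.42 log2 on all 3 arrays and Prps2 at 8.75, 8.75 and 8.69. Ppat, which commits the sugar to the purine ring, held 9.64 log2 on all 3 arrays, 4.22 above background (SE 0.02, limma, adjusted p = 6.94e-07). Gart, which carries out several of the early steps, was at 7.88, 7.78 and 7.78 log2, or 2.40 above background. Pfas, the amidotransferase that follows, held 6.11 log2 on all 3 arrays, 0.69 above background (SE 0.02, limma, adjusted p = 2.91e-05), and was not called with the 99th percentile as background (0.04 log2; limma, adjusted p = 0.479). Paics, which adds carbon dioxide and aspartate to the ring, had the highest signal of the members at 11.34, 11.34 and 11.43 log2, or 5.95 above background (SE 0.03, limma, adjusted p = 6.98e-07). Its values on arrays 1 and 2 were identical.

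The last steps follow. The earlier genes each held 1 value on at least 2 arrays, so ranges of early and last steps cannot be compared. Adsl, the lyase used in ring assembly and again in AMP synthesis, was at 7.37, 6.83 and 7.25 log2, or 1.73 above background (SE 0.13, limma, adjusted p = 0.000388), lowest on array 2. Atic, which closes the ring with a formyl folate carbon, was at 9.31, 9.01 and 8.50 log2, or 3.52 above background (SE 0.17, limma, adjusted p = 9.26e-05), highest on array 1 and lowest on array 3. Its range of 0.80 log2 was the widest of the purine branch. Adss, which leads to AMP, was at 9.25, 9.25 and 9.37 log2, and Gmps, which completes GMP, at 10.31, 10.48 and 10.26. Impdh1, one form of the enzyme that opens the GMP arm, held 4.92 log2 on all 3 arrays, 0.50 log2 under the background level, and was the purine gene not called.

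Ppat and Paics are neighbours on chromosome 5 and are read from opposite strands, with annotated starts 276 bases apart. Ppat held the E2F letters TTTCCCGC at 2 places upstream of its start, written on the strand of the gene as GCGGGAAA, and Paics held CCAAT just before its own. The stretches are shown because the starts of these 2 called genes lie so close, with each match in capitals. Each gene reads across the start of the other, and both Ppat stretches lie downstream of the Paics start.
Ppat, chr5:76951771-76951800, minus strand: gagcagaccgcGCGGGAAAaaagggcagtg
Ppat, chr5:76951719-76951748, minus strand: caggatcagaggGCGGGAAAgggaggtgca
Paics, chr5:76951272-76951301, plus strand: ctctccgCCAATcagctagggcaaagagag
TTTCCCGC or TTTGGCGC, searched on both strands, was found in 2 of 35 members (5.71%), the other being Prps2, beside 3.68% of genes above background and 1.80% of all genes with a window. Of the replication genes 8 of 13 held it (61.5%). The E-box CACGTG was found in 3 members (8.57%), Atic, Paics and Tyms, beside 11.7% of genes above background and 8.09% of all genes. The amino acid response letters TGATGNAAN were found in 1 member (2.86%), Prps1, beside 2.34% of genes above background and 4.50% of all genes. Windows of members and of genes above background both had a median GC content of 61.0%, and all windows 52.7%.

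Salvage and breakdown genes of the purines were above background in 11 of 16 (68.8%), beside 53.0% of all genes. Hprt, which salvages hypoxanthine and guanine, was at 8.17, 9.11 and 9.11 log2, lowest on array 1. Aprt and Adk, which salvage adenine and adenosine, held 7.44 and 7.15 log2 on all 3 arrays. The 5 genes not above background were Ada, Ampd1, Ampd3, Gda and Xdh, while Ampd2, an AMP deaminase like Ampd1 and Ampd3, was called at 6.58, 6.52 and 6.52 log2. Ampd2 is named after its values were seen. Xdh, which makes uric acid, was at 4.15 log2 on all 3 arrays.

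Pyrimidine synthesis was above background in all 5 genes. Cad, the fused enzyme of the opening steps, was at 6.92, 6.72 and 6.72 log2, or 1.37 above background (SE 0.06, limma, adjusted p = 6.63e-05). Dhodh, the mitochondrial dehydrogenase of the middle step, was at 5.82, 5.76 and 5.82 log2, or 0.38 above background (SE 0.03, limma, adjusted p = 0.000552), and below it with the 99th percentile. Umps, which makes UMP, held 8.43 log2 on all 3 arrays, 3.01 above background. Ctps and Ctps2, which both turn UTP into CTP, were at 8.22, 8.22 and 8.05 log2 and at 7.30, 7.34 and 7.30. The widest range of the branch was that of Cad, at 0.20 log2.

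Deoxynucleotide supply was above background in all 8 genes, and still in all 8 with the 99th percentile. Rrm1 and Rrm2, the large and small subunits of ribonucleotide reductase, were at 9.42, 9.31 and 9.42 log2 and at 9.69, 9.59 and 9.59, or 3.96 and 4.20 above background (SE 0.04 for each, limma, adjusted p of 1.65e-06 and 1.22e-06). Rrm2b, the small subunit known to be induced by p53, was at 7.19, 6.85 and 7.08 log2, or 1.62 above background (SE 0.09, limma, adjusted p = 0.000121). All 3 subunit genes were thus called, and Rrm2b alone had 3 different values. CCAAT was found in 3 of the 7 deoxynucleotide genes with a promoter window (42.9%), beside 42.3% of genes above background. No window was matched for Rrm2b. The 100 bases before the starts of Rrm1 and Rrm2 are shown because both subunits carry CCAAT there, in capitals.
Rrm1, chr7:102441595-102441694, plus strand: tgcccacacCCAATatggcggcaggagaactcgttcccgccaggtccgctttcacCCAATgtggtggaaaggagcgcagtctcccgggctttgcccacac
Rrm2, chr12:24708154-24708253, plus strand: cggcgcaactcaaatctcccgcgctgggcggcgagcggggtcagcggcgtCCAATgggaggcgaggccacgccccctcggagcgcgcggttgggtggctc

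Tyms, thymidylate synthase, which methylates dUMP with a folate carbon, was at 9.07, 9.07 and 8.77 log2, or 3.55 above background (SE 0.07, limma, adjusted p = 6.83e-06). Dut, which clears dUTP and so makes dUMP, was at 8.22, 8.22 and 8.20 log2. Dctd, which makes dUMP from dCMP, was at 8.84, 8.43 and 8.43 log2, highest on array 1. The salvage kinases lay lower above their background, with Tk1, for thymidine, 1.82 log2 above it and Dck, for deoxycytidine, 1.16 log2. The 2 probe sets of Tk1 had means of 7.39 and 7.08 log2. Other genes of pyrimidine and deoxynucleotide salvage, phosphorylation and breakdown were above background in 10 of 16 (62.5%), beside 53.0% of all genes. Dtymk, which phosphorylates TMP, held 9.08 log2 and Cmpk1, a UMP and CMP kinase, 10.33 log2 on all 3 arrays, whereas Tk2, the mitochondrial thymidine kinase, held 4.68 log2 and was not above background.

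Taking the 4 neighbouring lists as 1, 43 of 61 genes (70.5%) were above background, with a median signal of 5.90 log2. Both measures lay between those of the members and of all genes. The share of all genes was 53.0%, and it stands beside each count that follows. Other one-carbon genes gave 14 of 20, with Ggh, which trims folate chains, at 6.48, 5.87 and 6.32 log2 and its counterpart Fpgs, which extends them, at 5.79, 5.84 and 5.84. Mtrr, the reductase that keeps methionine synthase active, held 4.57 log2 on all 3 arrays and was not above background. Genes of the amino acid response were above it in 7 of 10, with the factor Atf4 at 8.19, 7.81 and 8.19 log2 and its target Asns at 7.07, 7.07 and 7.40, and without Chac1, Sesn2 and Slc7a11. MYC and E2F factors gave 13 of 14, with Myc at 7.53 log2 on all 3 arrays, Mycn at 6.87, 6.87 and 6.92, and E2f1, at 5.44 log2 on all 3 arrays, not called. Replication genes were above background in 18 of 18 and mitosis genes in 13 of 13.

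How far the buds differed could be read for some members only, since many deposited values were tied. Of the 41 members, 9 (22.0%) held 1 value on all 3 arrays, beside 51.7% of all genes and 42.1% of genes above background, and 21 more held 1 value on exactly 2 arrays. Over the 32 that were not identical, the 21 with a tied pair included, the median range was 0.125 log2, beside 0.182 log2 over all such genes. Shmt2 and Mthfd2l, both mitochondrial folate enzymes, were the members with a range over 1 log2, 2 of 41 (4.88%) beside 2.37% of all genes. These shares are not on a like base, since identical genes have no range and are fewer among the members. Without identical genes the counts were 2 of 32 members and 473 of 9627 genes. Shmt2 and Mthfd2l ran opposite ways, with array 2 the lowest for Shmt2 and the highest for Mthfd2l.

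**Figure D4:**
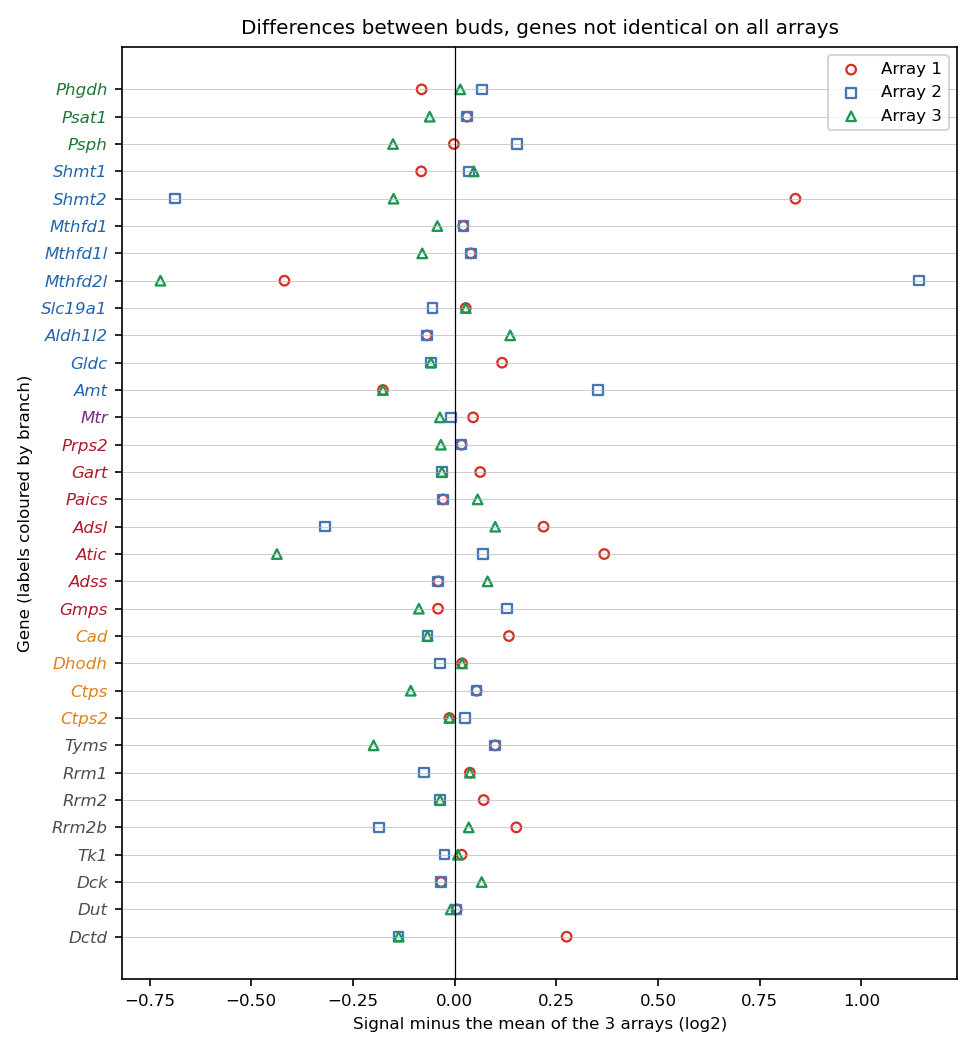
Signal of each array minus the mean of the 3 arrays (log2, horizontal axis) for the 32 members not identical on all arrays, with labels coloured by branch. Most genes lie close to 0, Shmt2 is high on array 1 and Mthfd2l on array 2, and Atic is low on array 3.

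Array 1 alone was the highest for 11 of the 32 members, array 2 for 6 and array 3 for 5, the rest having 2 arrays level at the top. Array 1 alone was the lowest for 2, array 2 for 7 and array 3 for 12. Over the 9627 genes not identical on all arrays, arrays 1, 2 and 3 alone were the highest for 2444, 2547 and 2302 and the lowest for 2162, 2109 and 1973. In deoxynucleotide supply array 1 alone was the highest for 4 of 8 genes and alone the lowest for 0, though it shared the lowest value of Dck with array 2. The median of an array minus the mean of the others was 0.036, -0.026 and -0.052 log2 on arrays 1, 2 and 3 over the 32 members, beside -0.012, -0.0033 and -0.0090 over all genes not identical. It was 0.082, -0.052 and -0.0013 log2 in deoxynucleotide supply and -0.0027, 0.10 and -0.092 in serine synthesis. With 1 array per bud these shifts have no test. In the neighbouring lists 3 genes had a range over 1 log2, named here after their values were seen: Slc3a2, at 8.08, 7.37 and 7.06 log2, Prpsap1, at 9.16, 7.81 and 8.46, and Guk1, at 8.12, 7.02 and 7.34. All 3 were highest on array 1, like Shmt2.

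Markers of other cells also differed between the buds. Endothelial markers were above background in 7 of 10 genes, and 10 of 10 were lowest on array 2, with summed linear signals of 1203, 565 and 1765 on arrays 1, 2 and 3. Erythroid markers were above it in 3 of 6, with sums of 944, 272 and 720. Leukocyte markers were above it in 3 of 7, namely Cx3cr1, Cd68 and C1qc, and hepatocyte markers in 2 of 5, namely Apoa1 and Hnf4a. Ptprc held 4.48 log2 and Alb 4.53 log2 on every array, both below background. Beside these shares, 53.0% of all genes were above background. Bud markers were highest on array 1 in 10 of 13, with sums of 8118, 6679 and 6351. Of the 32 members not identical on all arrays, array 2 alone was lowest for 7, among them Shmt2 and Adsl. It was highest for 6, among them Mthfd2l and Amt. The endothelial and erythroid sums were both lowest on array 2, but the endothelial sum was highest on array 3 and the erythroid sum on array 1. Array 3 alone was lowest for 12 members. Atic, 1 of these, ran in the order of the bud sums, highest on array 1 and lowest on array 3. The part of these cells in the differences was not tested, and in sorted cells of 1 bud a change in the cells present and a change in RNA per cell cannot be told apart.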

How the data were processed

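The authors deposited 1 log2 number per probe set and array. The submitters' processing notes name Affymetrix Expression Console, while version, background correction and normalization were not given in the sources used here. From the range of the values, base 2 was inferred for the logarithm. They were used as deposited, with array medians of 5.47, 5.50 and 5.48 log2. Of 35557 probe sets, 21789 had 1 symbol in the platform annotation, 1621 had several and 12147 had none listed. Only those with 1 symbol were used, and probe sets of 1 gene were averaged. RefSeq's gene table held an ID for 21698 of them and for all 41 measured members.

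Each gene's mean above the background level was tested with limma 3.58.1 (R 4.3.3), with no covariates. Where a gene is identical on all arrays, its error reflects the 3 background levels and limma's prior rather than the buds. The test was tried on simulated data for 19938 genes, 200 of them set above background. With the other genes at their real means it recovered 98% of those 0.5 log2 above background and 100% of those 1 log2 or more above it. The 200 were not the only genes above background in that version, as 53.0% of all genes were called in the deposited values. Of all genes 51.7% held 1 identical value on all 3 arrays, and recovery with such genes left out was not tested. A first, harder simulation set all other genes 0.5 log2 below background. There the test recovered 64% at 0.5 log2, 74% at 1, 78% at 2 and 86% at 3. The recovery asked was 80%, and it was missed at 0.5, 1 and 2 log2. The real-means version was written after that, and in the final run the 80% was asked of that version only. The simulations differ in the means of all other genes and in the background levels. The harder one used the same level on every array, while the other used the real level of each array. What lowered recovery was not tested.

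The labels do not say whether the buds came from separate litters, and p-values measure at most the spread between these 3 arrays, which for genes with identical values they do not measure. The members, lists and tests were chosen with earlier results of these data known. Every member could be named. From other lists the text could name the first 4 measured genes, any side of the call with 5 or fewer, and marker genes. Promoter strands were checked on 1716 overlapping windows. Alternatives changed the background genes or percentile, the normalization, the probe set rule, the filters, the model and the arrays used.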

Additional observations from a re-analysis of the deposited data

How the results depend on the processing

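No paired analysis was possible because the design has 1 group. With keratin-associated proteins and beta-defensins setting the background, 20 of 41 members were above it, with 0 serine, 3 folate, 0 methionine and 3 pyrimidine genes, beside 4210 of all genes and 18 of the 61 neighbouring pathway genes. The mean above background then turned negative for Psat1 (-0.056 log2), Psph (-0.47), Shmt1 (-0.078), Mthfd2l (-0.98), Folr1 (-1.09), Slc19a1 (-0.23), Gldc (-0.37), Amt (-1.29), Mtr (-0.95), Mat1a (-1.33), Pfas (-0.76), Cad (-0.078), Dhodh (-1.07) and Dck (-0.29), and Adsl (0.29), Rrm2b (0.17), Phgdh (0.082) and Mthfd1 (0.018) stayed positive but lost the call. With the 99th percentile of olfactory receptors, 7034 of all genes, 27 neighbouring pathway genes and 0 methionine genes were above background, and the mean turned negative for Mthfd2l (-0.18 log2), Folr1 (-0.29), Amt (-0.49), Mtr (-0.14), Mat1a (-0.52) and Dhodh (-0.27). Vomeronasal receptors turned Aldh1l1 (0.16 log2) and Impdh1 (0.057) positive. Asking every array to exceed its level, with no model, the lowest array gave -0.25 log2 for Mthfd2l and -0.0071 for Amt. Without identical genes, 6078 of 9627 genes, 20 neighbouring pathway genes and 1 methionine gene were above background. Leaving out 1 array at a time gave 1 to 2 methionine genes, and means of -0.089 to 0.82 log2 for Mthfd2l and -0.0036 to 0.24 for Amt. Of 36 members called, 20 kept the call and direction in every alternative that tested them. Leaving out Shmt2 and Mthfd2l, chosen after seeing the data, gave 35 of 39. The cause of these changes was not tested.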
